A study of Mus musculus with 6 samples.

Results

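Choroid plexus epithelial cells were present among single cells that had been sorted as endothelial cells and neural stem and progenitor cells from mouse brain. They were chosen by a rule on RNA in the replicate 2 library of each of 3 groups. A barcode, the tag of 1 droplet, was taken when it had at least 300 detected genes and at most 20% of its UMIs (unique molecules) from mitochondrial genes. At least 2% of its UMIs had to come from Ttr, the gene of transthyretin, and at least 1 UMI from Folr1, Clic6, Kcnj13, Kl or Aqp1 together. The rule found 169 barcodes among the 4643 of these libraries that passed the filters, in a series of 7433 deposited barcodes. Of the 169, 7 were in control, 23 in GlastiKO and 139 in ECiKO.

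The choroid plexus is a fold of epithelium and capillaries that hangs into the brain ventricles and makes cerebrospinal fluid. Its epithelial cells pump sodium, chloride, bicarbonate and water across a tight layer, and release transthyretin, which carries thyroid hormone, together with growth factors and binding proteins. They carry folate and other nutrients from blood to fluid, bear cilia on their ventricular face and are rich in mitochondria.

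The 3 groups consisted of adult mice aged 8 to 12 weeks. Controls were labelled Cx43flox/flox: they carry Gja1 flanked by loxP sites, and Gja1 encodes connexin 43, a channel protein of gap junctions. By their names, mice labelled Cx43GlastiKO have a knockout tied to Glast and those labelled Cx43ECiKO one tied to endothelial cells, whose library titles read Vecad. The recombinase lines, any inducing agent and the number of animals per library are not given in the sources used here. The study's title names vessel to stem cell interactions through connexin 43 as its subject. Per the labels, tissue from cortex and the subventricular zone was treated with enzymes (30 minutes at 37 °C), and CD45-negative cells were sorted as CD31-positive Glast-negative or Glast-positive CD31-negative cells. Neither gate is one for choroid epithelium. Each group had 2 libraries, called biological replicates in the labels, and choroid epithelium was found in replicate 2 only, so each group had 1 usable library and nothing here has a replicate error or a p-value. Intervals are exact 95% intervals and cover counting error only: Clopper-Pearson for shares, Poisson for levels in counts per 1000000 UMIs (CPM) and conditional binomial for ratios of CPM.

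The 3 libraries differed in depth before any choice of cells. The replicate 2 libraries held 9775060, 14859187 and 5164001 UMIs for control, GlastiKO and ECiKO. They held 1076, 1319 and 2674 deposited barcodes, the cell numbers that the labels state, of which 942, 1197 and 2504 passed the filters. The barcodes outside the rule had a median of 8017, 10634.5 and 784 UMIs in that order. Among the 15 pairs of the 6 libraries, 5 pairs shared 1 barcode sequence each, and 0 of the 169 barcodes were shared.

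Choroid epithelium made up a larger share of ECiKO replicate 2 than of the other libraries. The share of passing barcodes was 0.743% in control (7 of 942; interval 0.299 to 1.53%), 1.92% in GlastiKO (23 of 1197; 1.22 to 2.87%) and 5.55% in ECiKO (139 of 2504; 4.69 to 6.52%). The 3 shares rose in the order control, GlastiKO, ECiKO, with narrow overlap of the intervals of the first pair and none with the third. ECiKO supplied 82.2% of all of them. The replicate 1 libraries had 0 of 773, 0 of 497 and 0 of 410 barcodes, which by a limit of 3 counts allows shares of up to 0.388, 0.604 and 0.732%. Depth differed with these counts: the median of the chosen barcodes was 21535 UMIs in control, 19299 in GlastiKO and 812 in ECiKO. Counting only those with at least 4000 UMIs, a limit set after the depths were seen, left 7, 23 and 11, and 128 shallower ones were all in ECiKO. Few other ECiKO barcodes were that deep: of the 2291 below 2% Ttr, 211 were. In control and GlastiKO the median of the other barcodes lay above that limit. The deep numbers are therefore counts only and give no share of the deep barcodes of each library. The part that dissection, sorting and droplet quality had in these counts was not tested.

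**Figure D1:**
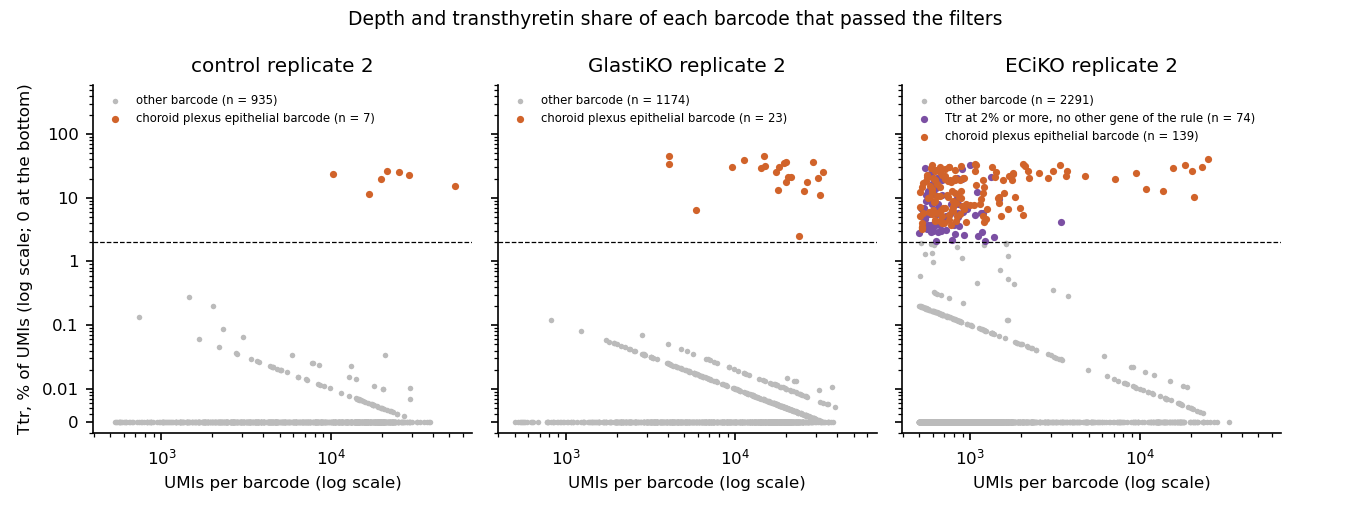
Each point is 1 barcode of a replicate 2 library, with its UMIs on the horizontal log axis and the percent of them from Ttr on the vertical log axis, with 0 drawn at the bottom and the 2% limit dashed. In control and GlastiKO the 7 and 23 choroid barcodes stand apart above the line, and in ECiKO 139 of them, most under 4000 UMIs, lie beside 74 that have Ttr at 2% or more and no UMI of the other genes of the rule.

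The genes of the rule chose the cells, so their values are a description. Ttr took 20.0% of all UMIs in control, 23.7% in GlastiKO and 21.5% in ECiKO. Per barcode, its share ran from 11.4 to 26.7% with a median of 23.1% in control, from 2.48 to 45.8% with a median of 25.5% in GlastiKO and from 3.29 to 40.8% with a median of 12.6% in ECiKO. The highest shares just outside the limit were 0.277% in control and 0.122% in GlastiKO, far below the lowest inside. In ECiKO the nearest value outside was 1.95%, with 12 passing barcodes between 1 and 2%, so the gap seen in the other libraries was filled. Folr1, the folate receptor by which the epithelium takes up folate, stood at 811, 777 and 974 CPM in control, GlastiKO and ECiKO. Kl, the gene of the anti-ageing hormone Klotho, stood at 1207, 601 and 649 CPM. Of the 176417 UMIs summed for control, 54061 came from 1 barcode, so control levels here and below lean on it. Without that barcode Kl stood at 703 CPM in control. Clic6, a chloride channel family gene, stood at 777, 444 and 566 CPM, and Kcnj13, a potassium channel gene of the apical membrane, at 499, 467 and 474 CPM. Aqp1, the water channel gene known from this epithelium, was low, with 18, 13 and 13 UMIs (102, 30.1 and 43.1 CPM), and it was at 0 in 3 of 7, 13 of 23 and 7 of 11 barcodes with at least 4000 UMIs. In ECiKO the rule often rested on few molecules: 64 of the 139 barcodes had exactly 1 UMI of the 5 genes other than Ttr.

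The label was checked with genes that the rule did not use. All 11 further choroid markers fixed in a list (Otx2, Kcne2, Sostdc1, Enpp2, Prlr, Tmem72, Slc4a5, Cldn2, Wfdc2, Slc13a4 and Col9a3) were detected in the choroid barcodes of each of the 3 libraries. Together they took 2.29%, 1.25% and 1.07% of UMIs in control, GlastiKO and ECiKO, against 0.188%, 0.186% and 0.181% in the other barcodes of the same libraries. Ependymal cells, the ciliated lining next to the plexus, share cilia genes with it. Their list of 12 markers took 0.0584%, 0.0661% and 0.0689% of UMIs in the choroid barcodes against 0.0129%, 0.0139% and 0.0126% in the others. In the choroid barcodes 5, 4 and 4 of the 12 were at 0, among them Ccdc153, Tmem212, Fam183b and Vit in each library, while Dynlrb2, Mia and Cfap126, which are also on the cilia list, were detected in each. When each barcode was thinned to 500 UMIs, at least 1 UMI of the 11 markers was seen in 7 of 7, 23 of 23 and 136 of 139 choroid barcodes, against 37.6%, 38.6% and 48.9% of the others. Without thinning the other barcodes had shares of 69.1%, 72.1% and 65.8%. Enpp2, which oligodendrocytes make as well, gave 16970 of 17446, 25280 of 25819 and 8190 of 8409 marker UMIs in them. Enpp2 also gave most of the marker UMIs of the choroid barcodes, so the summed shares rest largely on it. Of the 11 markers, 6, 7 and 7 had at least 50 UMIs over choroid and other barcodes together. All of those were at least 2-fold higher in the choroid barcodes, beside 14.1%, 12.1% and 11.9% of all genes. A marker low in the other barcodes reaches 50 UMIs only through the choroid barcodes, so this count is a description and no check of the label.

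Clustering all 4643 barcodes without the 6 genes of the rule still gathered the choroid barcodes. Of 18 clusters, cluster 17 held 42 barcodes, all of them choroid by the rule: 7 from control, 22 from GlastiKO and 13 from ECiKO. Of the fixed choroid markers that the rule did not use, Sostdc1 and Prlr were among its 10 leading genes. Cluster 10 held another 122 choroid barcodes, 121 of them from ECiKO, beside 55 of the 74 barcodes with Ttr alone and 5 others. Its median depth was 754 UMIs against 18858.5 in cluster 17. By the naming rule it stayed unnamed, since none of the markers of its best-matching list, ependymal, was among its 10 leading genes. Those genes included Calml4, Ecrg4 and Sostdc1, which also led or marked cluster 17. The remaining 5 choroid barcodes lay in clusters 11, 13 and 14. At a lower resolution of 0.5, 97.0% of the choroid barcodes fell into 1 cluster.

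Gja1, the targeted gene, was close to absent in choroid epithelium. It had 0 UMIs in control, 1 in GlastiKO and 3 in ECiKO, which is 0, 2.31 and 9.94 CPM, against 517, 405 and 232 CPM in the other barcodes of those libraries. With the 0 in control set to 3 counts, the level there was at most 0.0329 of that in the others. These cells therefore cannot check the genotype labels. Gja1 lies on chromosome 10 from 56377330 to 56402513 (mm10, plus strand). Of 12 connexin genes, 11 had 0 UMIs in control, 7 in GlastiKO and 6 in ECiKO, and the list as a whole took 0.000567%, 0.00301% and 0.00961% of UMIs against 0.182%, 0.173% and 0.153% in the other barcodes. The genes of the sort antigens were as low. Slc1a3, which encodes Glast, had 0, 1 and 12 UMIs, and 0 in the 11 ECiKO barcodes with at least 4000 UMIs. Pecam1, which encodes CD31, had 0, 0 and 1 UMIs, and Ptprc, which encodes CD45, had 0 in all 3 libraries.

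Genes outside the rule were then read by role, each as the level in choroid barcodes against the other barcodes of the same library. The 7 role lists held 133 genes beyond the rule. In ECiKO 74 of them had at least 50 UMIs over both sums, of which 40 were at least 2-fold higher and 22 at least 2-fold lower. In GlastiKO 42 of 89 were higher and 30 lower, and in control 40 of 83 and 27. Over all genes with that many UMIs the share 2-fold higher was 11.9% in ECiKO, 12.1% in GlastiKO and 14.1% in control, and the share 2-fold lower was 45.0%, 52.8% and 43.0%. A gene could reach 50 UMIs through the choroid barcodes alone, so these counts, and those by list that follow, are a description. The median ratio of the role genes was 2.05 in ECiKO, 1.89 in GlastiKO and 1.90 in control, against 0.574, 0.459 and 0.638 over all genes tested. Counting only genes whose interval also lay off 1, 40, 40 and 39 role genes were higher in ECiKO, GlastiKO and control beside 11.5%, 11.3% and 11.1% of all genes, and 20, 24 and 18 were lower beside 33.6%, 36.7% and 20.1%.

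Of the transcription factors with enough UMIs, 6 of 10 in control, 4 of 10 in GlastiKO and 6 of 9 in ECiKO were at least 2-fold higher, beside 14.1%, 12.1% and 11.9% of all genes. Otx2, the homeodomain factor that choroid plexus needs to form and persist, stood at 255, 233 and 301 CPM in control, GlastiKO and ECiKO, against 14.6, 6.41 and 5.81 CPM in the others. Msx1, a target of bone morphogenetic protein signals, stood at 476, 338 and 335 CPM against 1.51, 1.66 and 4.74 CPM. Sox9 (215, 183 and 222 CPM), which astrocytes also express, was 1.90, 1.95 and 2.64-fold higher. Forebrain and hindbrain plexus can be told apart by position genes. Of 13 posterior genes, Hox genes and Meis1 among them, 13, 13 and 12 had 0 UMIs in control, GlastiKO and ECiKO. The 3 UMIs in ECiKO were of Meis1. In the other barcodes 9 of the 13 in control and 10 in GlastiKO were at 0 too. Only 2 had at least 50 UMIs over both sums in each library, so the ventricle of origin was not tested. Of 8 anterior genes 6, 3 and 4 were at 0, and the list took 0.0108%, 0.00971% and 0.00662% of UMIs against 0.00606%, 0.0109% and 0.00683% in the others. Six3, which gave most of those UMIs, had 13, 29 and 16.

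Genes of secreted proteins other than Ttr took 3.32%, 2.45% and 2.29% of UMIs, against 2.39%, 1.999% and 2.42% in the others. Enpp2, the gene of autotaxin, which makes lysophosphatidic acid, stood at 19046 CPM in control, 9948 in GlastiKO and 7932 in ECiKO, against 1833, 1820 and 1764 CPM. Without the control barcode with the most UMIs, Enpp2 stood at 12897 CPM in control. Ecrg4, a secreted neuropeptide precursor that the plexus is known to release, stood at 2641, 2578 and 2474 CPM, nearly level across the libraries, against 0.216, 1.73 and 19.4 CPM. Of the 90 UMIs in the other ECiKO barcodes, 10 lay in the 2291 below 2% Ttr, or 2.18 CPM. Sostdc1, an inhibitor of bone morphogenetic protein and Wnt signals, stood at 748, 791 and 1030 CPM against 0.648, 0.720 and 4.74 CPM. Clu, the gene of clusterin, was 2.09, 3.02 and 5.58-fold higher. Ptgds, Apoe and Cst3, which glia also make in quantity, were not 2-fold higher in any library: Ptgds stood at 0.138, 0.278 and 0.210 of the level in the other barcodes.

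Ion and water transport genes were mixed. Fxyd1, the gene of phospholemman, which regulates the sodium pump, was 13.8, 22.8 and 34.9-fold higher in control, GlastiKO and ECiKO. The pump subunit gene Atp1b1 was 50.3, 8.97 and 10.7-fold higher. Slc4a10, a sodium bicarbonate transporter gene of the basolateral face, was 68.0, 32.1 and 67.7-fold higher. Car2 (carbonic anhydrase 2) and Slc12a2 (the sodium potassium chloride cotransporter NKCC1) are both needed for fluid secretion, yet oligodendrocytes express them too. Car2 stood at 805, 950 and 1017 CPM in choroid barcodes and at 3543, 3324 and 3890 CPM in the others. Slc12a2 stood at 760, 185 and 268 CPM against 1030, 954 and 972 CPM. Without the control barcode with the most UMIs, Slc12a2 stood at 351 CPM in control.

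Of the genes that transport hormones, metals and nutrients, 8 of 12 in control, 8 of 14 in GlastiKO and 6 of 10 in ECiKO with enough UMIs were at least 2-fold higher, beside 14.1%, 12.1% and 11.9% of all genes. Slc31a1, the copper importer, was 21.6, 12.1 and 18.8-fold higher. Slco1c1, a thyroid hormone transporter gene, was 4.14, 1.89 and 2.88-fold higher, so it did not reach 2-fold in GlastiKO. Slc16a8, a lactate transporter known from choroid plexus and retinal pigment epithelium, had 16, 29 and 26 UMIs against 0, 1 and 2 in the others, at least 280-fold higher in control with the 0 set to 3 counts. Of retinoid genes, the retinol dehydrogenase gene Rdh5 was 10.9, 35.1 and 31.7-fold higher.

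In ECiKO 5 of 11 receptor and channel genes were at least 2-fold higher and 6 lower, and 2 of 8 junction genes higher and 4 lower, beside 11.9% higher and 45.0% lower over all genes, so the lower junction genes were near that share. Htr2c, the serotonin receptor for which the plexus is well known, had 135, 74 and 52 UMIs against 1, 1 and 3 in the others. Prlr, the prolactin receptor, stood at 782, 393 and 391 CPM against 1.73, 0.864 and 4.95 CPM. Without the control barcode with the most UMIs, Prlr stood at 433 CPM in control. Trpm3, a cation channel gene, stood at 2148, 497 and 447 CPM against 137, 82.9 and 62.2 CPM. Tmem72, a membrane protein gene, had 71, 41 and 29 UMIs against 0, 0 and 3. Fgfr2, which glia express, was at 0.144, 0.0846 and 0.130 of the level in the others. The keratin genes Krt18 and Krt8, which build the filaments of simple epithelia, had 46, 196 and 83 and 13, 37 and 27 UMIs, against 0, 1 and 12 and 0, 0 and 2. Cldn2, the pore-forming claudin of leaky epithelia, had 30, 27 and 16 UMIs against 1, 2 and 2. Ezr, the gene of ezrin, which ties microvilli to actin, was 24.8, 12.4 and 14.6-fold higher. Across the junction list the median ratio was 0.259, 0.541 and 0.393 in control, GlastiKO and ECiKO, beside 0.638, 0.459 and 0.574 over all genes. In control 2 of 8 junction genes were higher and 5 lower, beside 14.1% and 43.0% of all genes. In GlastiKO 4 of 10 were higher and 5 lower, beside 12.1% and 52.8%. Krt8 and Cldn2 stayed under 50 UMIs over both sums in each library.

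**Figure D2:**
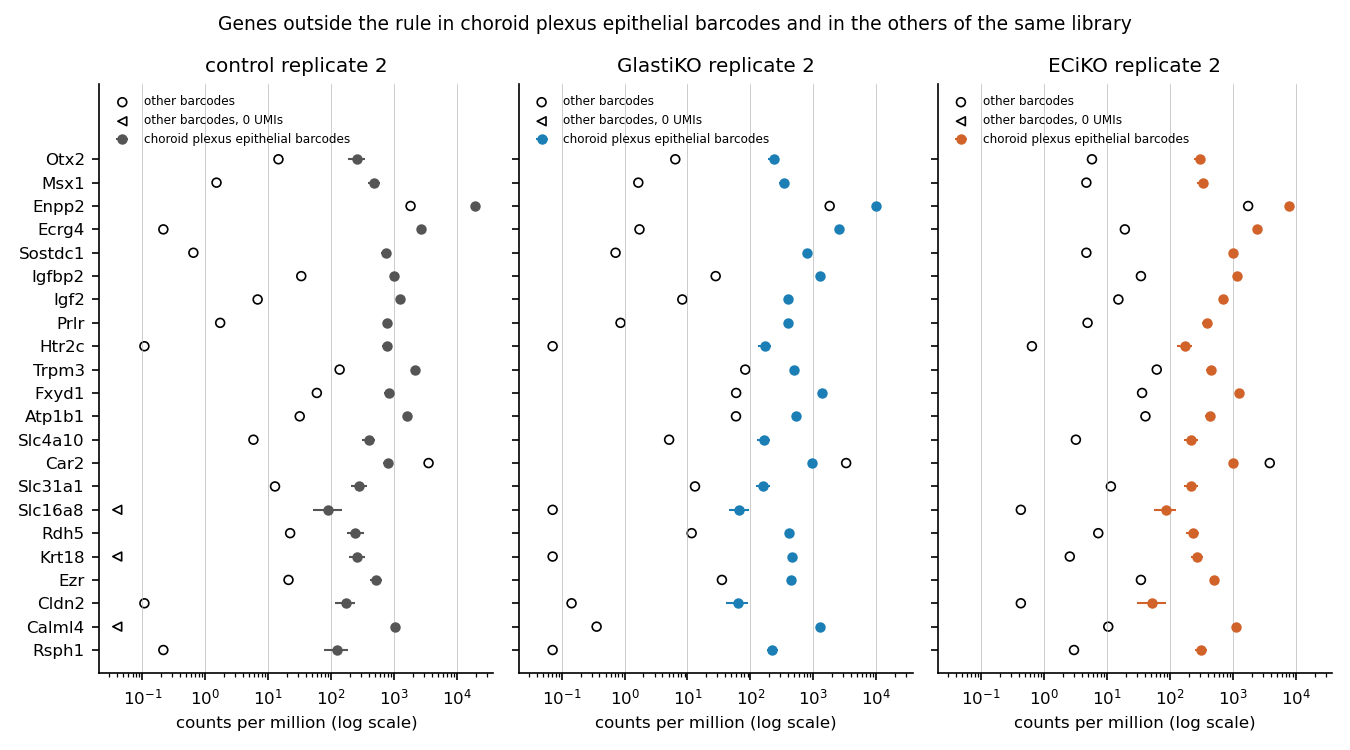
CPM on a log axis for genes that the rule did not use, with filled points for choroid barcodes (bars, exact 95% Poisson interval) and open symbols for the other barcodes of the same library, triangles for 0 UMIs. Filled points lie right of open ones in each row except Car2.

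Nuclear genes of the respiratory chain were higher as a group. These 74 genes encode subunits of the complexes that make ATP in mitochondria. They took 5.08% of UMIs in control choroid barcodes, 7.97% in GlastiKO and 6.93% in ECiKO, against 1.57%, 1.77% and 1.79% in the others. Among choroid barcodes with at least 4000 UMIs, the medians per barcode were 7.52%, 7.38% and 6.97%. Control barcodes ran from 1.15 to 9.07%, so the lower sum there is not that of a typical barcode. Of the 74 genes 59, 66 and 63 were at least 2-fold higher and 0 at least 2-fold lower, beside the shares of 14.1%, 12.1% and 11.9% given above, and the median ratios were 2.75, 3.55 and 3.17. Atp5g1, a subunit of the rotor of ATP synthase, stood at 1837, 3167 and 2726 CPM against 213, 224 and 271 CPM, and Cox8a, a subunit of cytochrome oxidase, at 3055, 4621 and 3935 CPM against 474, 561 and 556 CPM. The mitochondrially encoded genes did not move with them: they took 4.61%, 3.11% and 2.46% of UMIs against 4.70%, 4.40% and 5.19%. At least 2-fold lower were 0 of those 13 genes in control, 0 in GlastiKO and 6 in ECiKO, the last near the 45.0% of all its genes. Every cluster other than 10 and 17 had between 0.456 and 2.57% of UMIs in the nuclear list, against 6.55% in cluster 10 and 7.10% in cluster 17. The values were as high in shallow as in deep ECiKO choroid barcodes, 6.90% and 6.95%.

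Genes of the cilia list formed the second such group. The list of 31 took 0.287%, 0.272% and 0.272% of UMIs in control, GlastiKO and ECiKO choroid barcodes against 0.0308%, 0.0289% and 0.0389%. Few of the 31 had enough UMIs. Of those, 4 of 5, 9 of 11 and 6 of 8 were at least 2-fold higher, beside 14.1%, 12.1% and 11.9% of all genes. In each library 1 was at least 2-fold lower. Calml4, a calmodulin-like gene of brush borders and cilia, led the list with 1026, 1299 and 1126 CPM against 0, 0.360 and 10.6 CPM. That gene gave a large part of the summed shares, which are therefore not those of axoneme genes alone. Rsph1, a radial spoke head gene, stood at 125, 224 and 315 CPM against 0.216, 0.0720 and 3.02 CPM, and Dynlrb2, a dynein light chain gene, at 119, 203 and 139 CPM against 0.648, 0.792 and 1.29 CPM. Foxj1, the factor that drives motile cilia, had 19, 15 and 11 UMIs, or 108, 34.7 and 36.4 CPM against 34.8, 29.4 and 28.4 CPM.

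Stress and immune lists went in different directions. Immediate early genes, which dissociation induces, took 0.0346%, 0.0312% and 0.0527% of UMIs against 0.231%, 0.186% and 0.204%, and 16 of 18, 15 of 17 and 13 of 15 such genes with enough UMIs were at least 2-fold lower, beside 43.0%, 52.8% and 45.0% of all genes. Fos had 0, 1 and 12 UMIs against 342, 199 and 318 CPM in the others. The exception in ECiKO was Ier5, 2.29-fold higher. Metallothioneins split: Mt3 stood at 1650, 2813 and 2468 CPM against 293, 402 and 205 CPM, while Mt1 stood at 0.0730, 0.244 and 0.278 of the level in the others. The list of MHC and interferon genes took 0.116%, 0.146% and 0.130% against 0.0329%, 0.0374% and 0.0337%, and most of that was 1 gene, Ifi27, with 168 of 204, 497 of 633 and 315 of 394 UMIs. Heat shock genes stood at like shares, 0.648%, 0.555% and 0.682% against 0.689%, 0.634% and 0.708%.

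**Figure D3:**
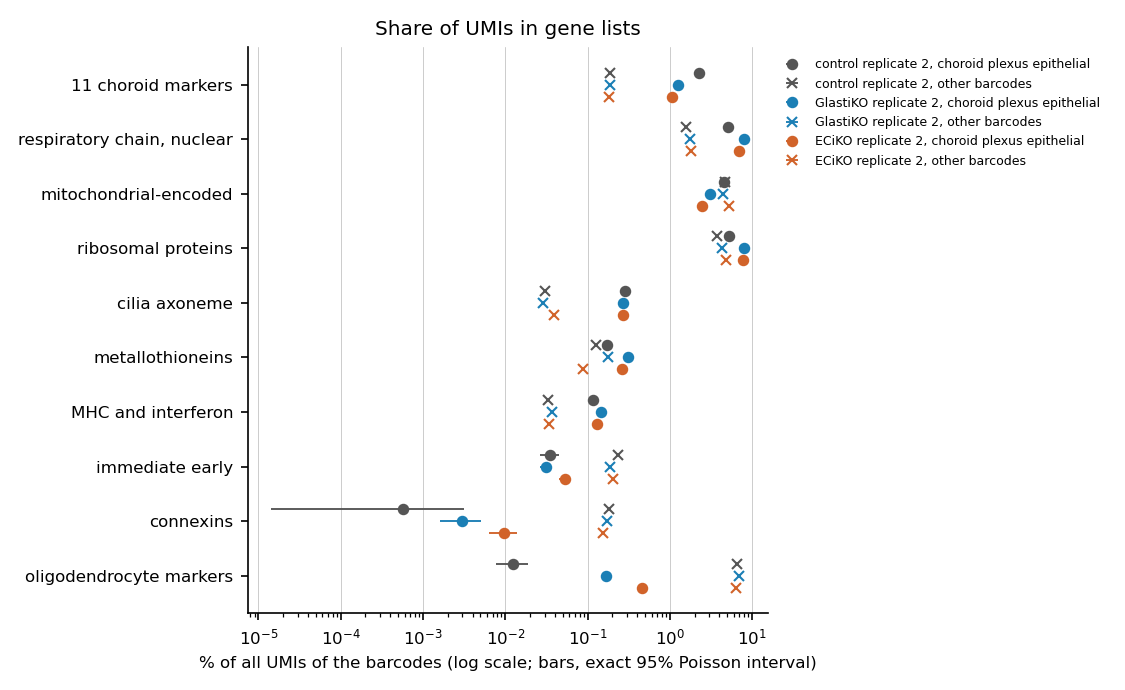
Percent of all UMIs, on a log axis, in 10 gene lists, with filled points for choroid barcodes and crosses for the other barcodes of each replicate 2 library and bars for exact 95% Poisson intervals. The 11 choroid markers, the nuclear respiratory chain and the cilia list lie to the right of the crosses in all 3 libraries, and immediate early, connexin and oligodendrocyte genes to the left.

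The 25 genes with the highest ratio in ECiKO, among those with at least 50 UMIs in its choroid barcodes, were chosen by that ratio and are a description there. F5 (coagulation factor V) led with a ratio of 395, followed by Sulf1, a heparan sulfate editing enzyme gene (323), Htr2c (267), Sostdc1 (217) and Ccdc113, a cilia gene (192). Others were Lbp, the gene of a lipopolysaccharide-binding protein, Emb, the gene of embigin, Spint2, a protease inhibitor gene of epithelia, Nme5 and Mlf1. The long noncoding RNA 2900040C04Rik, on chromosome 14 from 76251457 to 76252327, was among the most abundant, at 1394, 2083 and 1755 CPM in control, GlastiKO and ECiKO against 0, 0.144 and 15.9 CPM. Only 7 of the 25 were in the choroid role lists. The other libraries did not enter this choice. In GlastiKO 25 of 25 were at least 2-fold higher, beside 12.1% of all genes. In control 13 were, beside 14.1%, with 12 under the minimum of UMIs. A gene low in the other barcodes reaches that minimum only through the choroid barcodes, so these counts are a description as well. Ratios in ECiKO were lowered by the barcodes with Ttr alone, which were counted among the others. In the 2291 barcodes below 2% Ttr, F5, Htr2c, Cox8b and Wfdc2 had 0 UMIs.

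Because these genes and Otx2 were high in the same cells, their promoters were read for the core letters TAATCC that OTX-type homeodomain proteins are known to bind, on either strand. RefSeq windows (GRCm38.p6, 250 bases before to 50 after the start) matched 22 of the 31 genes of the rule and the leading list. Where a gene has several windows, only the first listed was read. The letters were in that window for 5 of the 22 and for 7.16% of all 27025 genes with a window (1935). The 3 sites shown lie before the RefSeq start of their window, with room on both sides. That of Rbm47 is a start within the annotated gene (66016549 to 66173118), which has others. They are printed 5′ to 3′ on the strand of the gene, with the motif or its reverse complement GGATTA in capitals.
Rbm47, chr5:66152157-66152186, minus strand: cggggggggggcGGATTAtacataataata
Ccdc113, chr8:95533959-95533988, plus strand: gaacagtgagatGGATTAggcatctgagta
Vat1l, chr8:114205549-114205578, plus strand: cggctcctctaaGGATTAcggcggaggcgg
A match describes letters only. These genes stood at 147, 109 and 169 CPM (Rbm47), 159, 169 and 166 CPM (Ccdc113) and 289, 270.5 and 295 CPM (Vat1l) in control, GlastiKO and ECiKO choroid barcodes, each within 2-fold across the libraries.

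Oligodendrocyte RNA was low in deep choroid barcodes and higher in shallow ones. The 12 oligodendrocyte markers took 0.0125% of UMIs in control, 0.166% in GlastiKO and 0.464% in ECiKO choroid barcodes, against 6.49%, 6.90% and 6.31% in the others. In control 7 of the 12 were at 0, and in the other libraries none was. In ECiKO the list took 0.0295% in the 11 barcodes with at least 4000 UMIs, 0.713% in 42 of 1000 to 4000 UMIs and 1.40% in 86 below 1000, against 2.41% in the 74 with Ttr alone and 6.36% in those below 2% Ttr. Of 10 leukocyte markers, all were at 0 in each library, and of 12 microglia and macrophage markers 11 were, the list taking 0.00283%, 0.00277% and 0.00199% of UMIs against 0.00357%, 0.00451% and 0.00230% in the others. Fibroblast markers took 0.0164%, 0.0123% and 0.00530% against 0.0134%, 0.00369% and 0.00823%, with 7, 6 and 7 of 10 at 0. Col1a2, chosen after its values were seen, gave 16 of 29, 11 of 53 and 3 of 16 of their UMIs. The part of fibroblast RNA in the results was not tested. Astrocyte markers took 0.00227%, 0.00462% and 0.0265%, with 9, 5 and 2 of 12 at 0. Endothelial markers took 0.00680%, 0.00370% and 0.0169%, with 10, 9 and 3 of 12 at 0. Of these, Slco1a4 had 10, 13 and 25 UMIs and is also on the transport list of the plexus.

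Choroid RNA changed with depth in the opposite way. Ttr took 25.5% of UMIs in the deep ECiKO barcodes, 18.9% at 1000 to 4000, 13.0% below 1000 and 8.26% in those with Ttr alone. The 11 markers took 1.203%, 1.03%, 0.730% and 0.550% in the same order, against 0.176% below 2% Ttr. Set against the 11 deep barcodes, the 128 shallow ones had 40 of 848 genes at least 2-fold higher (4.72%) and 20 at least 2-fold lower (2.36%). Of 37 choroid role genes with enough UMIs, 5 were lower, among them Htr2c (0.268), Igf2 (0.309) and F5 (0.363), and 3 higher (Cldn11, Trf and Ptgds, which oligodendrocytes make in quantity). None of the 70 nuclear respiratory genes and 80 ribosomal protein genes with enough UMIs passed 2-fold. Whether shallow barcodes were damaged cells, fragments or droplets with free RNA was not tested.

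**Figure D4:**
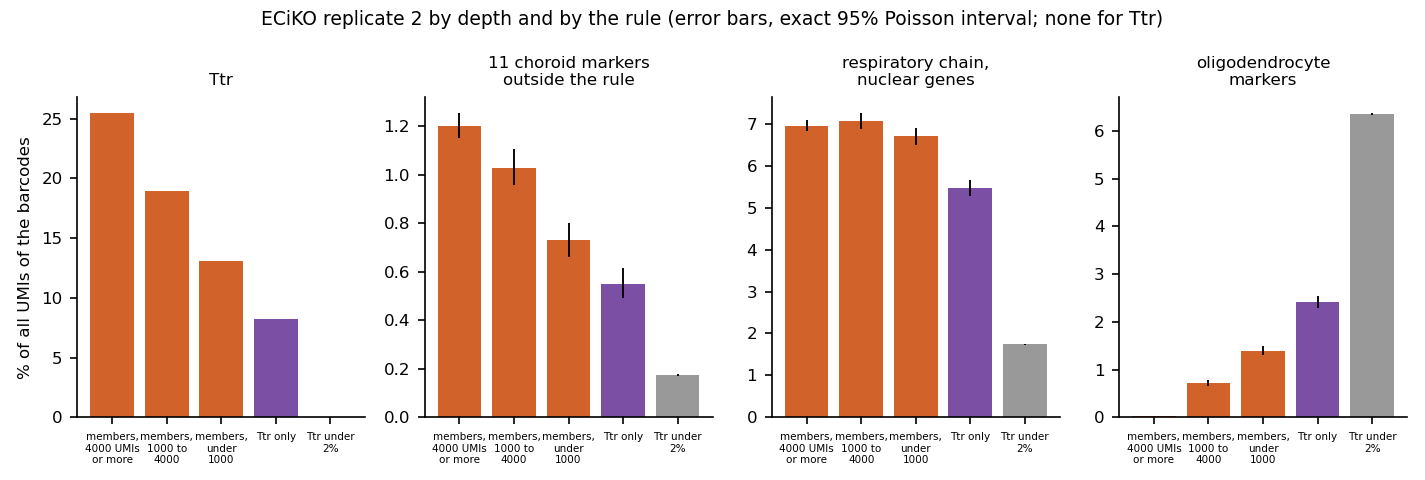
Percent of UMIs in ECiKO replicate 2 from Ttr and 3 gene lists, by depth of the choroid barcodes (orange), in the 74 barcodes with Ttr alone (purple) and in the 2291 below 2% Ttr (grey), with exact 95% Poisson intervals on the lists. Ttr and the 11 choroid markers step down and oligodendrocyte markers step up from left to right, while the respiratory chain stays between 6.69 and 7.07% in the choroid barcodes.

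Single barcodes with at least 4000 UMIs also differed among themselves. Of the 7 in control, 2 had 327 and 330 UMIs of Enpp2 per 10000, with the other 5 between 62.1 and 117. The same barcodes, of 19612 and 54061 UMIs, had the highest values in control of Kl (21.4 and 23.5), Htr2c (11.7 and 18.3), Slc12a2 (8.67 and 16.8), Prlr (11.2 and 15.7) and Igf2 (17.8 and 19.2), and the lowest nuclear respiratory share, 1.44% and 1.15% where the other 5 lay between 7.26 and 9.07%. In GlastiKO 1 barcode of 11206 UMIs had the highest values of its library in Enpp2 (286), Kl (13.4), Htr2c (11.6), Slc12a2 (7.14) and Prlr (16.1), and the lowest respiratory share, 3.41%. Its mitochondrial share was 8.58%, and those of the pair in control were 12.6% and 5.69%, against library medians of 3.05% and 3.18%. These 3 barcodes were chosen with their values known. Over the 41 deep barcodes, Spearman's rho was 0.64 for Kl and Htr2c (0.46, 0.67 and 0.57 within control, GlastiKO and ECiKO), 0.64 for Htr2c and Slc12a2 (0.75, 0.75 and 0.09) and -0.56 for Htr2c and the respiratory share (-0.93, -0.51 and -0.45). The cilia and respiratory shares had 0.57 (0.82, 0.55 and 0.58). These are descriptions: the values are shares of 1 total in which Ttr alone reaches 45.8%, and barcodes of 1 library share its preparation.

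**Figure D5:**
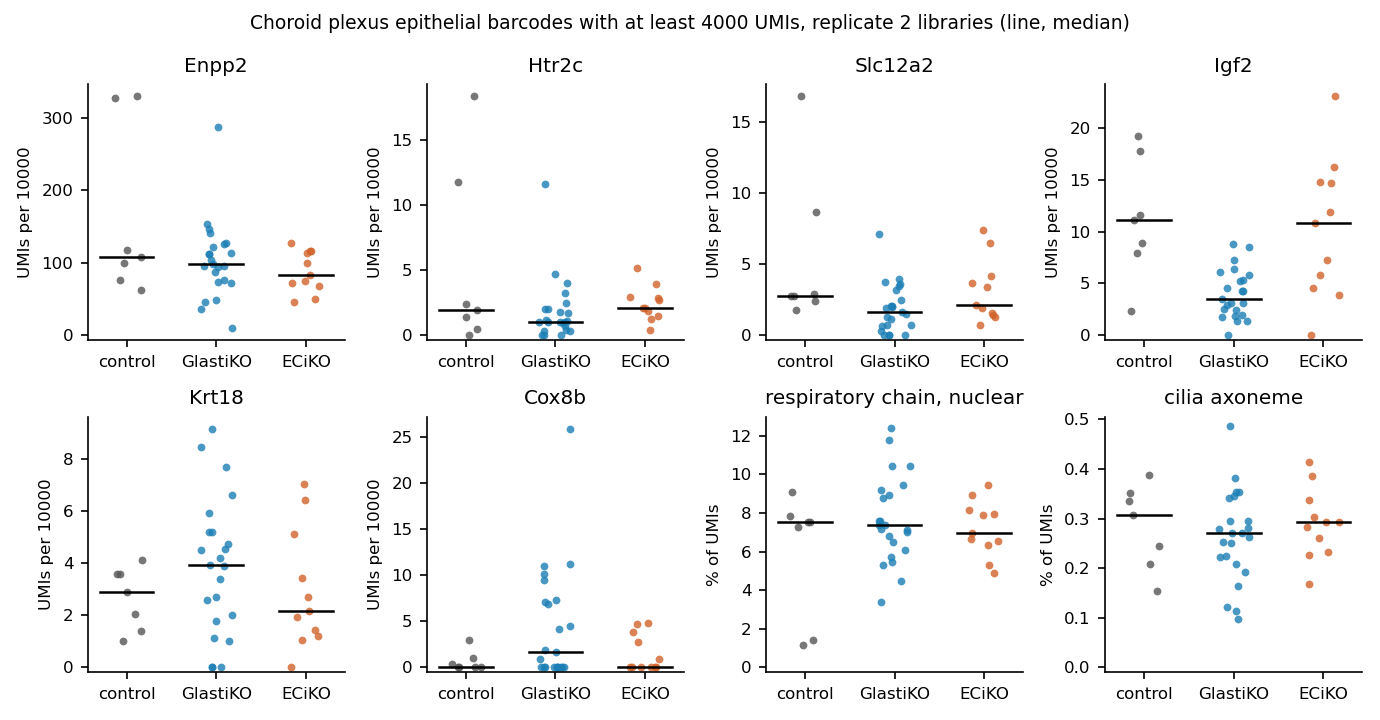
Each point is 1 choroid barcode with at least 4000 UMIs (7 in control, 23 in GlastiKO, 11 in ECiKO), as UMIs per 10000 for 6 genes and as percent of UMIs for 2 lists, with the median as a line. A pair of control barcodes stands high in Enpp2, Htr2c and Slc12a2 and low in the respiratory chain, and Igf2 is lower in GlastiKO, with a median of 3.51, than in the other groups.

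Between the groups the design allows values only. The control library had 7 choroid barcodes, under the minimum of 20 set for a comparison, so ECiKO and GlastiKO were set beside it without counts of genes. The summed share of the 11 markers outside the rule in ECiKO was 0.466 of that in control, and in GlastiKO 0.547. Enpp2, whose levels are given above, made up most of the sum in each library, so these are largely ratios of that gene. Both ratios rested on the control barcode with the most UMIs: without it they were 0.679 and 0.798, and the median share per barcode was 1.33% in control, 1.31% in GlastiKO and 1.12% in deep ECiKO barcodes. Igf2, a growth factor gene of the plexus and its stroma, was chosen after its values were seen. It ran from 2.32 to 19.2 UMIs per 10000 with a median of 11.2 in control, from 0 to 8.81 with a median of 3.51 in GlastiKO, and from 0 to 23.1 with a median of 10.9 in deep ECiKO barcodes, so the 3 ranges overlapped. Its binding protein gene Igfbp2 had medians of 11.02, 12.1 and 12.4.

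ECiKO and GlastiKO both had at least 20 choroid barcodes, and their comparison was added after the counts were known. Of 1863 genes with at least 50 UMIs over both sums, 49 were at least 2-fold higher in ECiKO (2.63%) and 8 at least 2-fold lower (0.429%). Of these 49, 8 were oligodendrocyte markers, whose levels by depth are given above. With the 11 deep ECiKO barcodes alone, 18 of 1511 were higher (1.19%) and 30 lower (1.99%; 28, or 1.85%, with the interval off 1), and 5 genes were higher and 5 lower in both. The choroid role genes were nearly level: 1 of 51 was higher, Cldn11, a myelin gene as well, and 0 were lower, with a median ratio of 0.985 against 1.02 over all genes. The nuclear respiratory genes had a median ratio of 0.877, with 0 of 74 past 2-fold.

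Of the 5 genes lower in ECiKO in both sets, 4 could be named by rule. Cox8b, the heart and brown fat form of a cytochrome oxidase subunit, had 7 UMIs in control, 243 in GlastiKO and 59 in ECiKO, and the ratio of ECiKO to GlastiKO was 0.348 (0.257 to 0.464). It was uneven among cells: 4 of 7, 10 of 23 and 6 of 11 deep barcodes had 0, and the highest value was 25.9 UMIs per 10000, in GlastiKO. Fabp3, a fatty acid-binding protein gene of muscle and heart, stood at 56.7, 411 and 192 CPM, a ratio of 0.467 (0.341 to 0.631). Ech1, an enzyme of fatty acid oxidation, stood at 215, 261 and 96.1 CPM (0.368; 0.236 to 0.557), and Cat, the gene of catalase, at 73.7, 127 and 46.4 CPM (0.365; 0.187 to 0.665). Control stood below GlastiKO in each of these 4. The 5 that were higher in both sets were Hist1h1e, a linker histone gene (ratio 2.55), Anp32e, a histone chaperone gene (2.28), Rnf11 (2.04), Sh3d19 (2.02) and Spcs2, a signal peptidase subunit gene (2.01). With 1 library a group, a difference between these libraries and one between the genotypes cannot be told apart.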

How the data were processed

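Raw UMI counts per gene and barcode from the 10x 3′ kit version 3.1, as the authors deposited them for 32285 genes, were used without change. Cell Ranger 5.0.0 is named per the file headers and the labels, and Cell Ranger 2.1.1 and Seurat 4 per the submitters' processing notes, with mm10. Barcodes were filtered and chosen by the rule above. UMIs were summed per library over the chosen barcodes and over the other passing ones and divided by their totals (CPM). A gene was called at a 2-fold ratio with at least 50 UMIs over both sums, which is no test. A 0 was set to 3 counts for a bound. Genes were named by rule: those of the rule, Gja1 and the sort genes, up to 6 per role list by UMIs in ECiKO, the 25 leading genes, and up to 10 per direction between groups. Other named genes were chosen after their values were seen. The cells, lists and rules were chosen with earlier results of these data known. Clustering used scanpy 1.11.5 and leidenalg 0.10.2 (2000 variable genes, 30 components, 15 neighbours, resolution 1). Scrublet called 11 of 4643 barcodes (0.237%) as doublets and none of the chosen ones, a rate too low to show that it worked, so doublets were left in. The counting code was tested on simulated data. Gene positions are from GENCODE M21. Some results on named genes are not reported here.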

Additional observations from a re-analysis of the deposited data

Results flagged for a closer look

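Outside the filters, 7 of 170 barcodes of ECiKO replicate 2 had at least 2% of their UMIs from Ttr, where 0 of 134 in control and 0 of 122 in GlastiKO did. Of these 7, 5 had under 300 genes and 2 had over 20% mitochondrial UMIs, and 5 had a UMI of another gene of the rule. Ttr took 20.0% of their UMIs. They stand out because they belong to data that no comparison above used.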

How the results depend on the processing

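No paired analysis was possible because choroid barcodes came from 1 library per group and no result is a test. Of 63 alternatives 26 were classed as moving the value and 0 as reversing it. Others could not move it: no choroid barcode was a called doublet, and several limits added or left out ECiKO barcodes only, which leaves the ratio of GlastiKO to control as it was. The number of choroid barcodes was 105 with at least 2 UMIs of the other 5 genes, 107 with at least 500 genes and 41 with at least 4000 UMIs, and ECiKO then supplied 71.4%, 72.0% and 26.8% of them. With at least 4000 UMIs GlastiKO held 23 and ECiKO 11, so the order of these counts turned, although this alternative was classed as moved. The 26.8% was not set against the number of deep barcodes in each library. The share of markers of other cell types, 0.247% over the 3 libraries, was 0.163% with at least 2 UMIs, 0.176% with at least 500 genes, 0.223% with Ttr of at least 5%, 0.107% with at least 4000 UMIs and 0.192% without the GlastiKO barcode of 26653 UMIs. Leaving out 1 library at a time gave 0.129 to 0.320%, lowest without ECiKO. The marker ratios that follow rest mostly on Enpp2. The marker ratio of ECiKO to control was 0.501 with at least 2 UMIs, 0.511 with mitochondrial UMIs of at most 10%, 0.434 thinned to 500 UMIs, 0.525 with at least 4000 UMIs and 0.679 without the deepest control barcode. That of GlastiKO to control was 0.574 with Ttr of at least 5%, 0.599 with mitochondrial UMIs of at most 10%, 0.573 with CPM computed without the genes of the rule, 0.782 thinned and 0.798 without that barcode. The largest cluster held 72.2% of choroid barcodes at resolution 1, 97.0% at resolution 0.5 and 95.3% with 1000 variable genes. The limits of at least 4000 UMIs and single barcodes left out were chosen after seeing the data.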
